A study of Rattus norvegicus with 11 samples.

Results

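Integrins, laminins, cadherins and syndecans are the surface receptors and matrix proteins by which a fibroblast holds on to its substrate and to its neighbours. Their RNA was measured in REF52, an established line of rat embryo fibroblasts, after infection with an adenovirus that expresses E2F1, which drives the genes of S phase entry. The genes were chosen by symbol alone: those starting with Itga, Itgb, Cdh and a digit, Pcdh, or Lama, Lamb or Lamc and a digit, and the syndecans Sdc1 to Sdc4. This gave 43 of the 10411 genes with a single symbol on the array, held by 59 of 15866 probe sets, and a gene with several probe sets was read by the one of highest mean level. They are 9 integrin alpha and 4 integrin beta subunits, 8 laminin chains, 10 cadherins, 5 protocadherins, 4 syndecans and 3 proteins that carry an integrin's name because they bind one (Itgb1bp1, Itgb1bp2 and Itgb3bp). Of the 43 genes, 13 lay among the dimmest 30% of probe sets, with a mean level under a signal of 67.2, where little can be said of a change.

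Cells grown in medium with 10% serum were held in 0.25% serum for 48 hours, then infected with the E2F1 virus or a control virus labelled CMV. Both kinds of cell were then left in deprivation medium, given serum, or given serum with LY294002, which inhibits phosphoinositide 3-kinase. Each of these 6 groups had 2 arrays, except the deprived control virus cells with 1, and every cell, control included, had been through the deprivation and an adenovirus infection. REF52 is 1 cell line, and nothing in the labels tells separate cultures from repeat arrays of 1 culture. The p-values then cover the spread between arrays alone, and that spread may be technical.

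An integrin is a pair of an alpha and a beta subunit that binds matrix outside the cell and talin inside it, and so anchors actin at focal adhesions. A laminin is a trimer of an alpha, a beta and a gamma chain, a main component of basement membranes and a ligand of several integrins. Classical cadherins bind the same cadherin on the next cell and hold catenins with their cytoplasmic tail; protocadherins, encoded largely in gene clusters, are their relatives. Syndecans are transmembrane proteoglycans whose heparan sulfate chains bind matrix and growth factors, and syndecan-4 acts beside integrins in focal adhesions.

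The values were array signals scaled to a trimmed mean of 500 on every array, with array medians of 172 to 207. With 1 or 2 arrays a group, the precision of each comparison is limited by their number. The gap between the 3' and 5' ends of control transcripts, which widens as RNA degrades, was 0.12 to 0.33 (log2) on 7 arrays. It was wider on the 3 deprived arrays (0.51 to 0.76) and widest on the E2F1 array of replicate 2 with LY294002 (0.90). Markers of fibroblasts had a summed signal of 73670 to 105500 over 12 genes, 2 of them dim (Pdgfra and Lum). Col1a1, Vim and Fn1 were bright on every array, at 5084, 12200 and 11730 or more. Others were not, with Dcn as low as 9.57 and Lum as low as 3.94. Epithelial markers summed to 239 to 769 over 9 genes, 8 of them dim, and E-cadherin (Cdh1), which defines that cell type, lay between 3.04 and 6.55. Endothelial, leukocyte, neural and striated muscle markers summed to at most 1220 on any array. Among them Kdr (0.63) and Tie1 (0.47) of the endothelial list were called higher in the E2F1 average (log2), and Ptprc (-0.68) of the leukocyte list and Tnni1 (-0.75) of the muscle list lower. Kdr, Tie1 and Ptprc were dim, at no more than 54.0 on any array, where little can be said of a change. In this bulk RNA, fewer cells expressing a gene and less RNA per cell cannot be told apart.

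The promoters of 4 of the genes that fell with E2F1 are shown first, because Pcdhb9 and Pcdhb12 are neighbours in 1 gene cluster and share a sequence, and Lamc1 and Sdc4 hold a box in common. Each is the 250 bases before the annotated start, on the gene's strand, from RefSeq (assembly GRCr8). The RefSeq set held a promoter for 29 of the 43 genes and for 6 of the 9 genes lowered by E2F1. Cdh11, Cdh13 and Pcdha13 had none there, so the motif counts below leave them out. Capitals mark the longest run shared by Pcdhb9 and Pcdhb12, and GC boxes (GGGCGG on either strand) in Lamc1 and Sdc4. The regions are chr18:29379060-29379309 (plus strand), chr18:29413506-29413755 (plus strand), chr13:68051987-68052236 (minus strand) and chr3:173592924-173593173 (minus strand).
Pcdhb9: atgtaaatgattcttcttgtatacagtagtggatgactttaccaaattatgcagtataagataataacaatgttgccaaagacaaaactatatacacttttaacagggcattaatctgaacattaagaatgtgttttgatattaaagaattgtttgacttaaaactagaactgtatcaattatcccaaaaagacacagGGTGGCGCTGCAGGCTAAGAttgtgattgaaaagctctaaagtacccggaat
Pcdhb12: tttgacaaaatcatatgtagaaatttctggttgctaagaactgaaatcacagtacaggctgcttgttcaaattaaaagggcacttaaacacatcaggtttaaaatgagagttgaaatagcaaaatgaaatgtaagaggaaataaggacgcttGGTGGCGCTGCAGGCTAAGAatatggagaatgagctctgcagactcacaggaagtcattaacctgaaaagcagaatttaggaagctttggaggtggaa
Lamc1: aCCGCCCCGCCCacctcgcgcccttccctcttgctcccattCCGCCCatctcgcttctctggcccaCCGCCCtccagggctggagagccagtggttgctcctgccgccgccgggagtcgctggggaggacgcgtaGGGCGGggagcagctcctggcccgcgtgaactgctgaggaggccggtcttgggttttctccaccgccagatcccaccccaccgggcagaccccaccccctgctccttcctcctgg
Sdc4: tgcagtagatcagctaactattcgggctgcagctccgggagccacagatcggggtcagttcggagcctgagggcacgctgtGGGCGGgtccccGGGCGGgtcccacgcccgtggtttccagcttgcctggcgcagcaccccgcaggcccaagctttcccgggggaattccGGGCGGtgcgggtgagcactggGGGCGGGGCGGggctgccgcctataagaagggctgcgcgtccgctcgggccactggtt

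The run of 20 bases shared by the protocadherin promoters begins 52 bases before the start of Pcdhb9 and 98 before that of Pcdhb12. In the same window it was found in 5 of 33469 promoters (0.0149%), those of Pcdhb5, Pcdhb7, Pcdhb9, Pcdhb12 and Pcdhb14, all on chromosome 18. The Lamc1 and Sdc4 promoters hold 5 GC boxes each and are 71.2% and 70.0% G and C, against 32.4% for Pcdhb9 and 38.4% for Pcdhb12. A GC box stood in 30.5% of all promoters, in 12 of the 29 matched here and in 2 of the 6 of genes lowered by E2F1. The E2F motif TTTNNCGC, searched on both strands, stood in 4.11% of all promoters, in 1 of the 29 and in 0 of the 6. TATAAA was found in 12.9% of all promoters and in 3 of the 29, and the AP-1 motif TGANTCA in 6.34% and in 1. Neither occurred in the 6. A match is a run of letters and not a shown binding site, and a window without one says nothing of the factor.

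Averaged over the 3 media, E2F1 lowered 9 of the 43 genes and raised 0. They were the cadherins Cdh11 and Cdh13, the protocadherins Pcdha13, Pcdhb12 and Pcdhb9, the laminin chain Lamc1, the integrin subunit Itgb5, the syndecan Sdc4 and the integrin-binding protein Itgb1bp1, with log2 changes from -1.30 to -0.59. A gene counts as lowered or raised where the adjusted p is under 0.05 (limma on log2(signal + 16), Benjamini-Hochberg over all 15866 probe sets). Of all probe sets, 7.25% were called lower and 9.23% higher, and with 1 probe set for each of the 10411 genes 7.82% and 10.9%, beside 20.9% and 0% of the 43. Of the 43 changes, 31 lay below 0, and their median was -0.20 against -0.04 over all probe sets. At an unadjusted p under 0.05, 14 were lower and 1 higher, where 15.9% and 15.0% of all probe sets were.

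**Figure D1:**
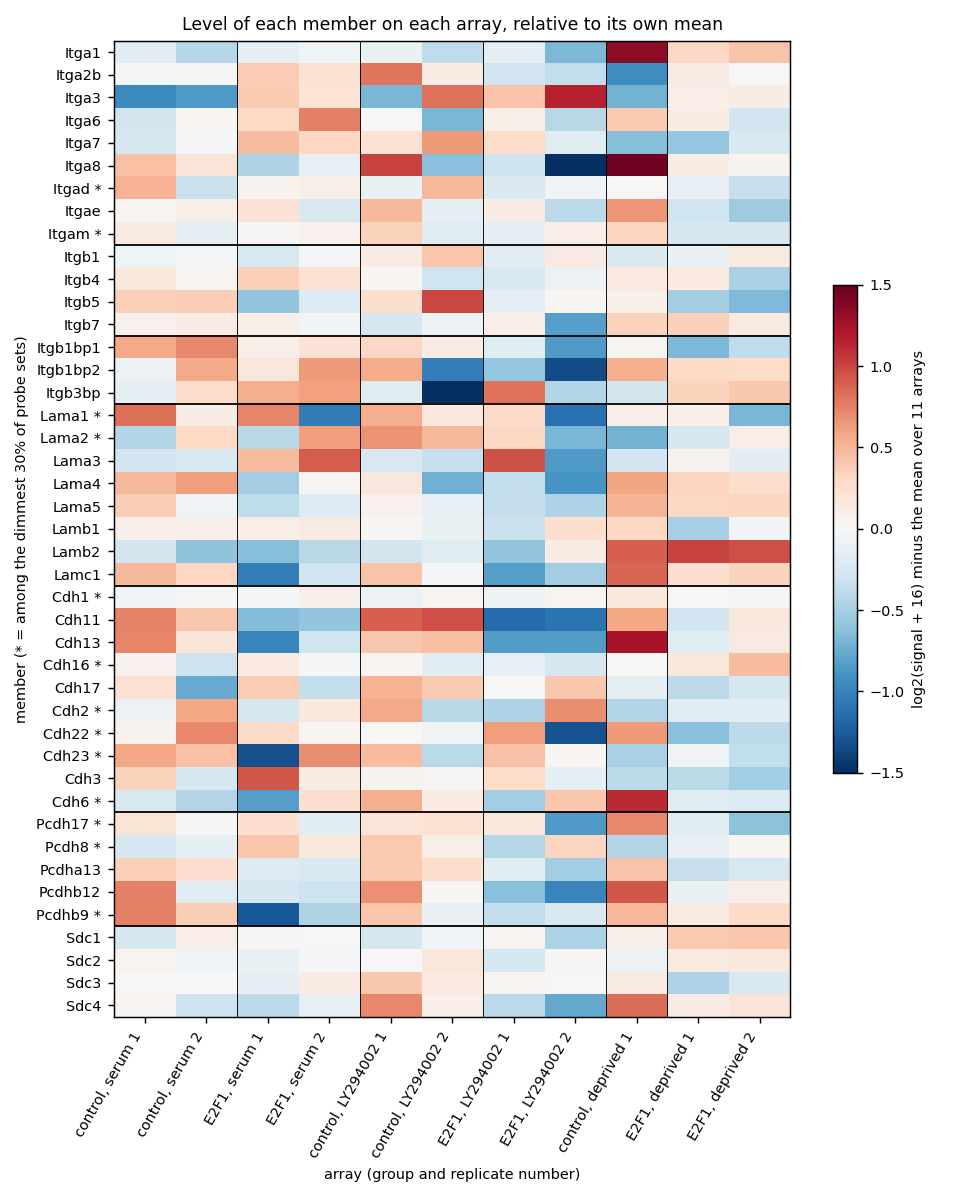
Heat map of the 43 genes (rows, grouped by family) on the 11 arrays (columns, by virus, medium and replicate number); colour gives log2(signal + 16) minus the gene's own mean over all arrays, cut at -1.5 and 1.5. The rows of Cdh11, Cdh13, Lamc1, Pcdha13 and Itgb5 are lower in the E2F1 columns than in the control columns of the same medium, and Lamb2 is high in the 3 deprived columns.

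The largest fall was that of Cdh11, cadherin-11, a classical cadherin of mesenchymal cells. Control virus against E2F1 arrays gave signals of 1229 and 971 against 460 and 479 in serum, 1371 and 1439 against 319 and 334 with LY294002, and 1100 against 592 and 824 in deprivation. Every E2F1 array (319 to 824) lay below every control array (971 to 1439). The average change was -1.30 ± 0.13 (log2, SE; 5 control and 6 E2F1 arrays), or 2.46-fold lower, with an adjusted p of 0.00114 (limma).

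Cdh13 is T-cadherin, a cadherin without a cytoplasmic tail that is anchored to the membrane by a lipid. Its signals were 4099 and 2796 against 1230 and 2002 in serum, 3256 and 3379 against 1368 and 1372 with LY294002, and 5817 against 2171 and 2696 in deprivation. The 2 groups did not overlap here either. It was 2.31-fold lower with E2F1 (-1.21 ± 0.17, adjusted p = 0.00392), and the other 2 probe sets of the gene were also called lower, by -1.09 and -0.86.

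The remaining 8 cadherins did not pass in this average. Cdh2, the N-cadherin known as the usual classical cadherin of fibroblasts, read only 21.5 to 68.3 on the probe set used, among the dimmest 30%, and changed by 0.00 ± 0.28 (adjusted p = 0.994). Its second probe set was dimmer still, at 0.812 to 16.9. Of the others, Cdh1, Cdh6, Cdh16, Cdh22 and Cdh23 were also dim, and the cadherins above that limit, Cdh3 and Cdh17, had average changes of 0.15 and -0.05.

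All 3 protocadherins called were members of the alpha and beta clusters, genes known for giving neurons distinct surface identities. Pcdha13 had signals of 270 and 250 against 178 and 174 in serum, 277 and 252 against 184 and 140 with LY294002, and 286 against 160 and 173 in deprivation. The E2F1 arrays again all lay below the control arrays, at 140 to 184 against 250 to 286. The change was -0.64 ± 0.11, or 1.56-fold lower (adjusted p = 0.00743). Alpha protocadherins share their last exons, so this probe set may read several of them, and the symbol was not in the RefSeq table used here.

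Pcdhb12 was 1.86-fold lower (-0.89 ± 0.21, adjusted p = 0.026). Signals ran 322 and 160 against 150 and 145 in serum, 305 and 186 against 114 and 84.6 with LY294002, and 366 against 169 and 197 in deprivation. Within each medium the groups did not overlap, while over all media they did. Its neighbour Pcdhb9, whose promoter holds the same run, was dim, with signals of 2.80 to 39.5 on E2F1 arrays and 25.6 to 60.8 on control arrays. It passed as well (-0.72 ± 0.19, adjusted p = 0.0393), but no fold is given so near the offset of 16. Reads of 1 beta protocadherin by the probe set of another were not tested. The other protocadherins, Pcdh8 and Pcdh17, were dim and did not pass.

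Among laminin chains only Lamc1 passed, the gamma-1 chain that most laminin trimers contain. Its signals were 2877 and 2548 against 994 and 1678 in serum, 2767 and 2016 against 1144 and 1424 with LY294002, and 3762 against 2441 and 2595 in deprivation. E2F1 arrays were lower in each medium, although the deprived E2F1 arrays lay above the lowest control array of the LY294002 group. The change was -0.84 ± 0.17, or 1.79-fold lower (adjusted p = 0.0154), and the second probe set gave -0.84 too (adjusted p = 0.0482).

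The chains that pair with it did not pass. Lama5, the alpha-5 chain, had the smallest adjusted p of them (-0.34 ± 0.12, adjusted p = 0.0919), with signals of 1409 to 2429 on E2F1 arrays against 1786 to 2789 on control arrays and no overlap within any medium. Lama4, the alpha-4 chain of mesenchymal and vascular laminins, changed by -0.48 (adjusted p = 0.157). The beta chains Lamb1 and Lamb2 changed by -0.18 and -0.00. Lama1 and Lama2 were dim. Lama3, the alpha-3 chain of epithelial laminins, changed by 0.51 without passing. With the 3' to 5' gap as a covariate it passed as higher (0.64, adjusted p = 0.0198, limma). Its change was 0.81 without the second E2F1 array with LY294002 and 0.79 without both second LY294002 arrays. Those fits leave 1 array in a group, whose spread then does not count.

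**Figure D2:**
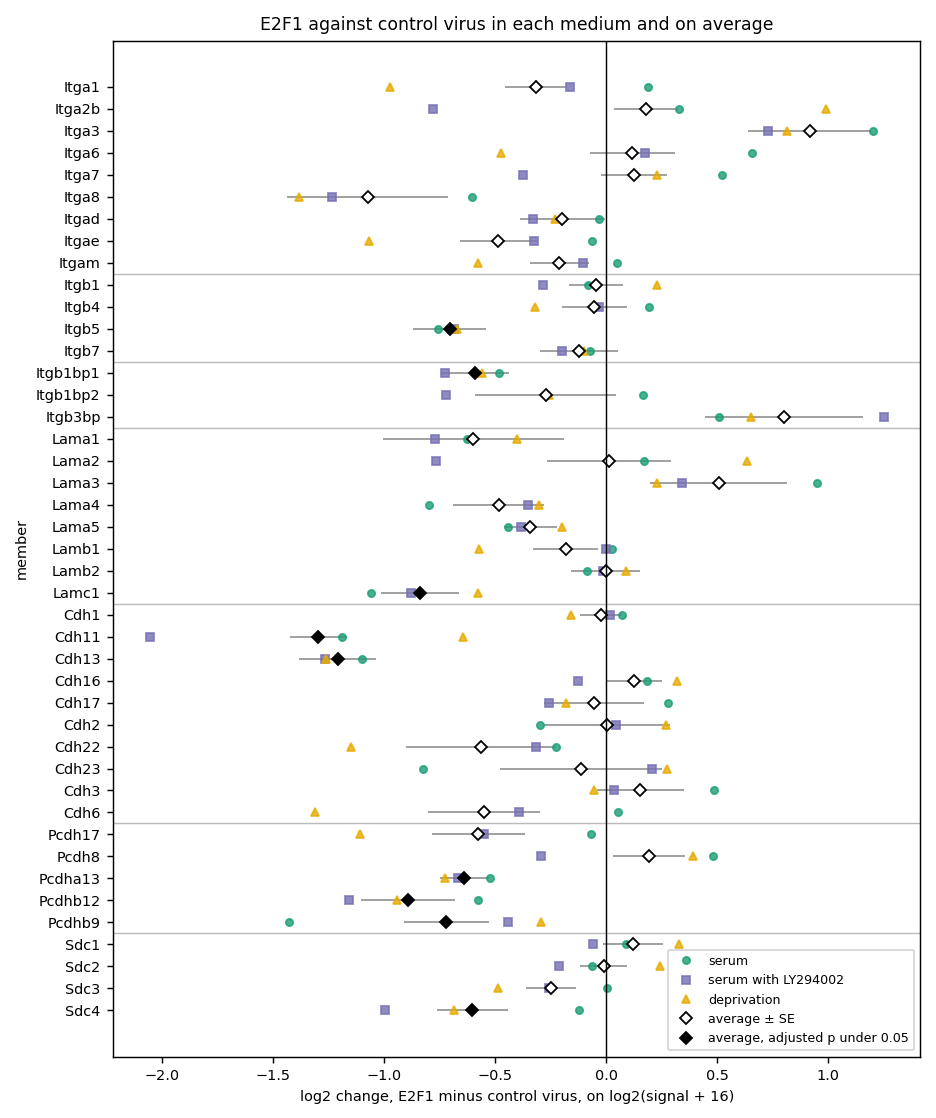
Log2 change, E2F1 minus control virus (x axis, on log2(signal + 16)), for each of the 43 genes (y axis) in serum, in serum with LY294002 and in deprivation, and as the average of the 3 with its SE (diamonds, filled where the adjusted p is under 0.05). The 9 filled diamonds lie between -1.30 and -0.59, and the largest single shift is that of Cdh11 with LY294002, at -2.05.

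Of the 13 integrin subunits 1 passed. Itgb5, the beta-5 subunit that pairs with alpha-v to bind vitronectin, had signals of 1611 and 1616 against 827 and 1088 in serum, 1499 and 2531 against 1139 and 1278 with LY294002, and 1326 against 869 and 786 in deprivation. Every E2F1 array was below every control array. It was 1.63-fold lower (-0.70 ± 0.16, adjusted p = 0.0239), and its second probe set fell by 0.89 on the log2 scale without overlap (adjusted p = 0.00708).

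Itgb1, the beta-1 subunit shared by most matrix-binding integrins, did not pass. It read 6731 to 8736 on E2F1 arrays and 6849 to 10590 on control arrays, a change of -0.04 ± 0.12 (adjusted p = 0.853). Its second probe set, also bright, changed by -0.13 (adjusted p = 0.508, limma). With LY294002 that probe set changed by -0.66 without overlap (adjusted p = 0.0803), against -0.28 for the one used. The remaining beta subunits, Itgb4 and Itgb7, changed by -0.05 and -0.12 and did not pass. A p above the threshold does not show that a level stayed the same.

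None of the 9 alpha subunits passed, and the 2 with the smallest p pointed in opposite directions. Alpha-5 (Itga5) and alpha-v (Itgav), the partner of beta-5, were not among the 43 genes, so nothing is said of them. Itga3, which pairs with beta-1 to bind laminin, read 339 and 367 against 888 and 780 in serum, 412 and 1195 against 913 and 1517 with LY294002, and 405 against 723 and 726 in deprivation. It was higher on E2F1 arrays in serum and in deprivation, but the 2 control arrays with LY294002 lay far apart and overlapped the E2F1 arrays (0.92 ± 0.28, adjusted p = 0.0616). Without the second of these control arrays the change was 1.17, and without the first 0.67. It was 1.04 without the first E2F1 array with LY294002 and 1.05 without both second LY294002 arrays. Each of these fits leaves 1 array in a group, so the gap between that group's arrays no longer counts in the spread. Itga3 passed when the dimmest probe sets were left out (adjusted p = 0.0344, limma). Itga8, which with beta-1 binds nephronectin and fibronectin, read 59.0 to 261 on E2F1 arrays against 150 to 690 on control arrays (-1.07 ± 0.36, adjusted p = 0.083). It passed as lower in 5 alternatives: without the second control array with LY294002 (adjusted p = 0.0246), without the first E2F1 array with it (0.0315), without both second LY294002 arrays (0.00746), with the 3' to 5' gap as a covariate (0.0408) and without the dimmest probe sets (0.0488). Itga7, a laminin-binding subunit best known from muscle, changed by 0.12 ± 0.15 (adjusted p = 0.64).

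**Figure D3:**
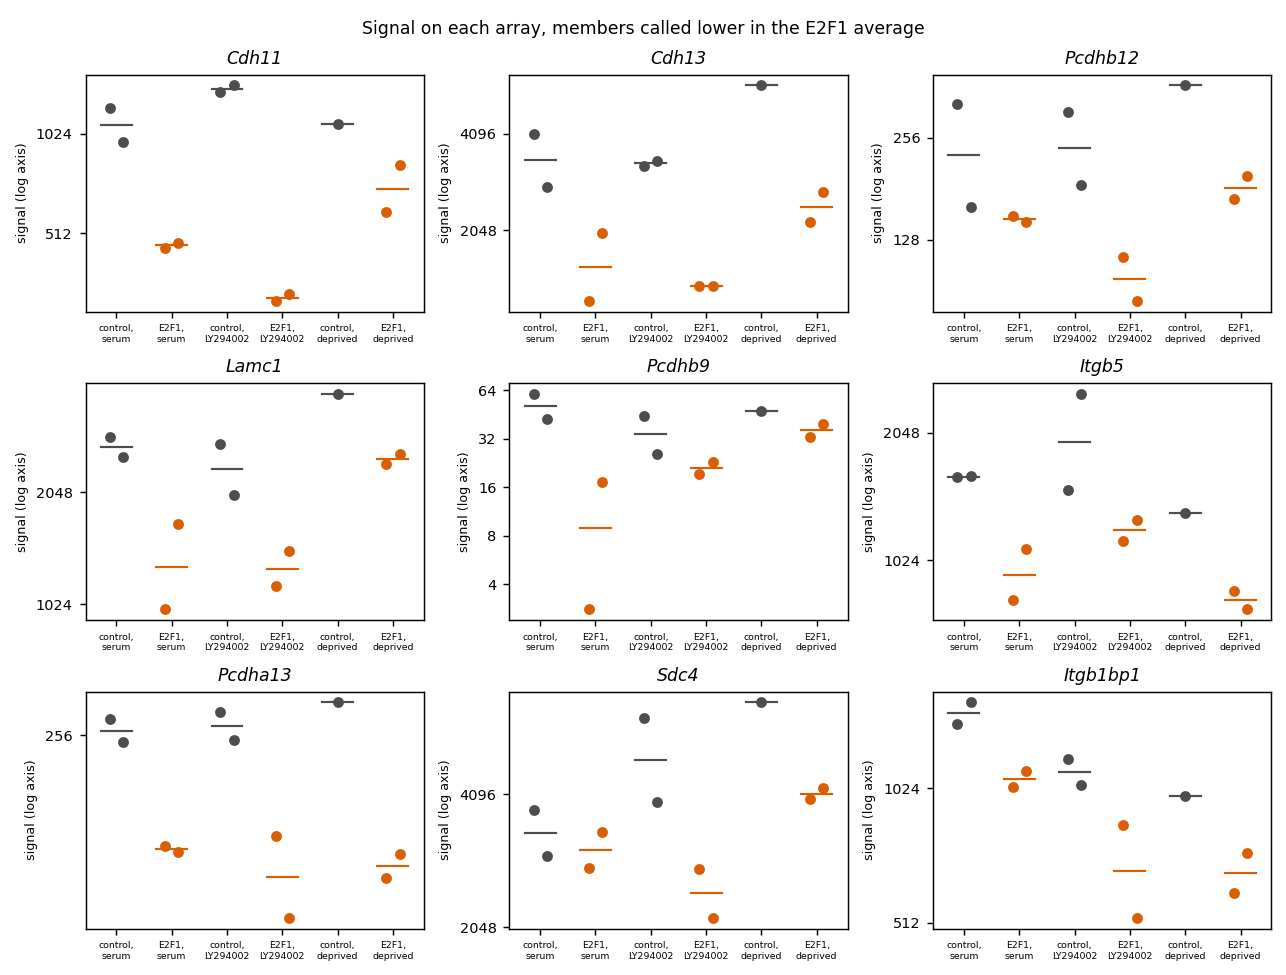
Signal on each array (points, log axis; each panel has its own scale) for the 9 genes lowered in the E2F1 average, by virus and medium; bars are group means taken on log2(signal + 16). In each panel except that of Sdc4 in serum, the E2F1 points of a medium lie below its control points.

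Of the syndecans Sdc4 passed. Its signals were 3763 and 2963 against 2793 and 3362 in serum, 6086 and 3929 against 2771 and 2150 with LY294002, and 6600 against 3983 and 4218 in deprivation. The groups overlapped in serum and were apart in the other media. The average was 1.52-fold lower (-0.60 ± 0.16, adjusted p = 0.0394), made up of -0.12 in serum, -1.0 with LY294002 and -0.69 in deprivation.

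Sdc1 changed by 0.12 (adjusted p = 0.616) and Sdc3 by -0.25 (adjusted p = 0.181). The 2 probe sets of Sdc2 disagreed: the one with the higher mean changed by -0.01 (adjusted p = 0.961), with 961 to 1294 on E2F1 arrays and 1090 to 1306 on control arrays. The other was called lower (-0.54 ± 0.13, adjusted p = 0.0247), with 616 to 1143 against 1103 to 1340. Whether Sdc2 was called lower thus depends on the probe set read.

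Of the 3 integrin-binding proteins, Itgb1bp1 passed. It is ICAP1, which binds the beta-1 tail and keeps the integrin in its inactive state. It was 1.51-fold lower (-0.59 ± 0.15, adjusted p = 0.0344), at 525 to 1118 against 983 to 1594, with no overlap within a medium. Itgb3bp, a centromere protein despite its name, had the opposite sign without passing (0.80 ± 0.36, adjusted p = 0.173), and its second probe set gave 0.95. The change of the probe set used was 1.09 without the first control array with LY294002 and 0.72 without both second LY294002 arrays. Those fits leave 1 array in a group, whose spread then does not count.

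In 9 of the 43 genes the E2F1 arrays lay below the control arrays, without overlap, in each of the 3 media. They were the genes called lower in the average except Sdc4, together with Lama5. This held for 8.97% of all probe sets in this direction. In the other direction it held for 10.0% of all probe sets and for 0 of the 43.

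The average rests on 1 deprived control array, and calls near the threshold moved as arrays were left out. Cdh11, Cdh13, Lamc1 and Pcdha13 passed in all 17 alternative fits considered here, 10 of which left out 1 array. The count fell from 9 to 4 without either deprived E2F1 array or replicate 1 of E2F1 in serum, to 5 without either control array in serum and to 6 without replicate 2 of E2F1 in serum. Itgb5 was lost in 5 of the 17, with adjusted p from 0.0583 to 0.0659, Pcdhb12 in 6 (0.0509 to 0.0753), Itgb1bp1 in 8 (0.0513 to 0.0977) and Sdc4 in 10 (0.0563 to 0.104). Pcdhb9 was lost in 10 of its 16 (0.0509 to 0.104). The count of 0 raised did not hold in every fit either. Itga3 passed as higher without the dimmest probe sets, and Lama3 with the 3' to 5' gap as a covariate. Itga3, Lama3 or Itgb3bp also did so in the fits named beside them that leave 1 array in a group, where that group's spread does not count. Other genes passed as lower, such as Itgae with quantile normalization (-0.50, adjusted p = 0.0413, limma) and Lama4 without the second control array with LY294002 (-0.63). Cdh22 (-0.89) and Pcdh17 (-0.75), both dim, did so without the first E2F1 array with LY294002.

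Taken medium by medium, the E2F1 comparison called fewer genes. In serum 0 of the 43 passed in limma, against 0.353% of all probe sets, and 9 had an unadjusted p under 0.05 (8 lower, 1 higher) against 15.5%. The median change was -0.06 for the 43 and 0.06 for all probe sets. Cdh11 had the smallest p of the 43 there (-1.19 ± 0.21, adjusted p = 0.0733).

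With LY294002, Cdh11 and Cdh13 were lower and 0 genes higher. Over all probe sets 1.63% were called lower and 3.78% higher, and the medians were -0.32 for the 43 and -0.04 for all. Cdh11 was 4.15-fold lower (-2.05 ± 0.21, adjusted p = 0.00663). Its call was lost in 2 of 19 alternatives. These were the fit of the compared arrays alone (adjusted p = 0.0952) and that without both second LY294002 arrays. The 19 include the fit without the deprived control array, which could only repeat the main values, as it was its group's only array. Cdh13 was 2.41-fold lower (-1.27 ± 0.28, adjusted p = 0.0423), but its call was lost in 13 of 19 alternatives, with adjusted p of 0.0512 to 0.194. Among these were the fits without either deprived E2F1 array, either control array in serum or any of the 4 LY294002 arrays.

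In deprivation 0 of the 43 passed, against 2.87% of all probe sets. At an unadjusted p under 0.05, 7 were lower and 1 higher, against 20.8% of all probe sets, and the medians were -0.29 and -0.14. This comparison sets 2 E2F1 arrays against the 1 control array. Itga2b, the platelet integrin subunit alpha-IIb, was the 1 gene higher at that level, at 107 and 96.9 against 43.4 (0.99 ± 0.28, adjusted p = 0.107). Itga1, the collagen-binding alpha-1 subunit, was lower, at 140 and 153 against 303 (-0.98 ± 0.27, adjusted p = 0.0982).

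Whether the effect of E2F1 differed between media was tested by the difference of the effects, and 0 of the 43 genes passed in any of the 3 differences, as did 0% of all probe sets (limma). Between LY294002 and serum, 4 of the 43 had an unadjusted p under 0.05, against 6.29% of all. Between deprivation and serum it was 3, against 9.72%, and between deprivation and LY294002 2, against 6.71%. These were Cdh11 (a difference of 1.41 ± 0.32, adjusted p = 0.426) and Itga2b (1.77 ± 0.37, adjusted p = 0.426). The larger fall of Cdh11 with LY294002 is thus not shown to differ from its fall in the other media.

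The inhibitor by itself moved 0 of the 43 genes past the threshold. In control virus cells 0 of the 43 and 0% of all probe sets passed (limma), and 2 of the 43 had an unadjusted p under 0.05 (1 higher, 1 lower) against 6.62%. In E2F1 cells 0 and 0% passed, and 4 had an unadjusted p under 0.05, all lower, against 11.1%. Averaged over both viruses, 0 and 0% passed and 3 were lower at an unadjusted p under 0.05, against 12.1%. Itgb1bp1 had the smallest p of these 3 (-0.55 ± 0.17, adjusted p = 0.379).

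In cells left deprived, against cells given serum and averaged over both viruses, Lamb2 and Itga1 were higher and 0 of the 43 genes lower. Every group had been deprived first, so a rise in deprivation cannot be told apart from a fall after serum was given. Over all probe sets 1.32% were called higher and 1.29% lower, and the medians were 0.02 for the 43 and -0.02 for all. Lamb2 is the laminin beta-2 chain, known from the basement membranes of muscle, nerve endings and kidney. It read 3065 on the deprived control array and 3317 and 3215 on the deprived E2F1 arrays, against 1356 and 1070 (control) and 1050 and 1224 (E2F1) in serum. With LY294002 in serum it read 1353 and 1446 on control arrays and 1083 and 1771 on E2F1 arrays, so the 3 deprived arrays lay above the other 8. The average change was 1.42 ± 0.20 (adjusted p = 0.0231). In control virus cells it was 1.34 ± 0.31 (adjusted p = 0.145) and in E2F1 cells 1.51 ± 0.25 (adjusted p = 0.0674).

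Itga1 read 303 on the deprived control array and 140 and 153 on the deprived E2F1 arrays, against 95.9, 77.6, 97.3 and 104 in serum. All 3 deprived arrays were above the 4 serum arrays, and the control array was far above the others. The average was 1.06 ± 0.18 (adjusted p = 0.0361), with 1.64 ± 0.27 in control virus cells (adjusted p = 0.0782) and 0.47 ± 0.22 in E2F1 cells (adjusted p = 0.289). The larger of these rests on the 1 deprived control array.

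**Figure D4:**
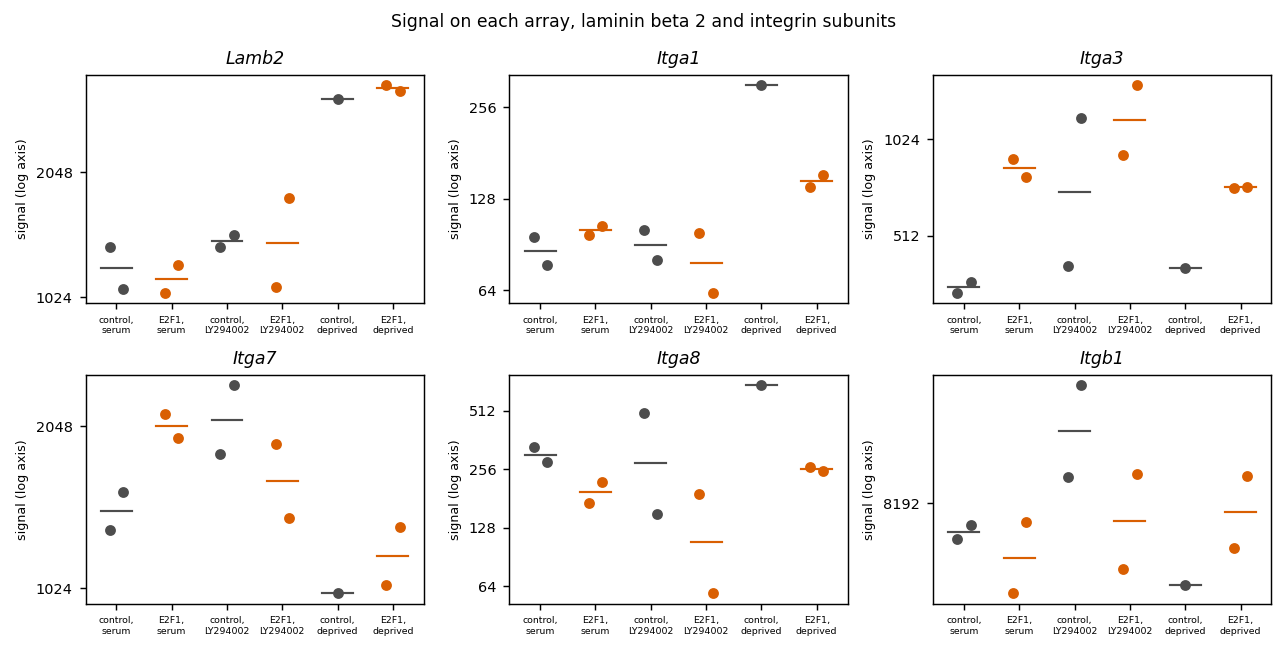
Signal on each array (points, log axis; each panel has its own scale) by virus and medium for Lamb2, Itga1 and 4 further integrin subunits; bars are group means taken on log2(signal + 16). Lamb2 lies at 3065 to 3317 on the 3 deprived arrays and at 1050 to 1771 on the other 8, while Itgb1 has no such split.

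Both calls were lost without either deprived E2F1 array, and also without any 1 of the 4 serum arrays of either virus, when 0 genes passed. The deprived arrays also had the wider 3' to 5' gaps given above. With that gap as a covariate the change was 0.89 for Lamb2 (adjusted p = 0.223) and 1.5 for Itga1 (adjusted p = 0.13). Within control virus cells 0 of the 43 passed for deprivation against 0.240% of all probe sets, and 5 had an unadjusted p under 0.05 (4 higher, 1 lower) against 14.0%. Within E2F1 cells it was 0 against 0.233%, and 8 (5 higher, 3 lower) against 19.6%. The comparisons of deprivation and of E2F1 share their control arrays in serum, so their values are not set against each other.

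Genes that work with these proteins were read in 4 lists in the E2F1 average; the lists were drawn up with results of these data known. Their counts are to be read beside the 7.25% of all probe sets called lower and 9.23% called higher. With 1 probe set per gene, as the lists were read, these shares were 7.82% and 10.9%. The focal adhesion list held 0 dim genes, while 30% of all probe sets are dim, so its share is not of like genes. Of 40 measured focal adhesion adaptors and kinases, 8 fell (20.0%) and 3 rose (7.5%, under the share of all probe sets), with a median of -0.41 against -0.04 over all probe sets. Among those that fell were the Src-family kinase Fyn (-0.91), caveolin Cav1 (-0.78), the PDZ and LIM protein Pdlim7 (-0.78) and the tensin Tns1 (-0.70); Itgb1bp1 is also in this list. Those that rose were the LIM protein Fhl2 (0.97), Git2, an Arf GTPase-activating protein that binds paxillin (0.67), and Enah, an actin regulator (0.49).

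Of 33 measured integrin ligands and basement membrane partners, 7 fell (21.2%) and 1 rose (3.03%), with a median of -0.24. The tetraspanin Cd9 (-0.96), fibulin Fbln2 (-0.89), the basement membrane proteoglycan perlecan, Hspg2 (-0.80), and the matricellular protein Ccn3 (-0.76) fell most. Tnc, the matrix protein tenascin-C, rose (1.28). Of 25 measured syndecan relatives and genes of heparan sulfate synthesis, 5 fell (20.0%) and 0 rose, with a median of -0.24. The 4 with the largest falls were Xylt2 (-0.74), which starts the sugar chain, the heparan sulfate polymerase subunit Ext1 (-0.73), B3gat3 (-0.58), which completes the linker, and the sulfotransferase Ndst2 (-0.55).

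Of 20 measured cadherin partners and nectins, 2 fell and 2 rose (10.0% each, near the shares of all probe sets), with a median of -0.01. Plakoglobin, Jup (-0.94), and the p120 catenin, Ctnnd1 (-0.55), both of which bind cadherin tails, fell. Pkp4, a relative of p120 (1.69), and Ctnnbip1, an inhibitor of beta-catenin (1.05), rose. Of 12 fibroblast markers, 12 had a change below 0 in the average, with a median of -0.29. Only 1 passed, the growth factor receptor Pdgfrb (-1.90), or 8.33%, near the 7.25% of all probe sets. The media differed. In serum 7 markers lay above 0 and 5 below (median 0.01), and with LY294002 2 lay above and 10 below (-0.18). In deprivation, against the 1 control array, 12 lay below 0 (-0.66). The summed signal of these markers was 73670 to 93500 on E2F1 arrays and 84190 to 105500 on control arrays. Its part in the falls above was not tested.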

How the data were processed

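RNA of REF52 cells was measured on 11 rat arrays (15923 probe sets, 57 of them controls). The values deposited by the authors are signal intensities on a linear scale; MAS5 and RMA appear in the submitters' processing notes with no role given, and no version is stated there. The arrays were grouped by their titles into 6 groups. Taking log2(signal + 16), with no scaling between arrays, limma 3.58.1 (R 4.3.3; lmFit, then eBayes with no trend) estimated 1 mean per group from the 11 arrays together, leaving 5 residual degrees of freedom. For the group with 1 array, the spread of the other groups stands in. P-values were adjusted by Benjamini-Hochberg over 15866 probe sets within each of 13 comparisons, with a threshold of 0.05. The averages of LY294002 and of deprivation over both viruses were added after seeing the data. Folds are on the log2(signal + 16) scale.

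The genes, lists and rules were chosen with earlier results of these data known. The rule for named genes takes up to 8 called in each direction per comparison, the one with the highest mean in each family, the 2 with the smallest p in a family without a call, every syndecan, Itgb1 and Cdh2, and up to 4 called per list and direction; others, such as Itgb1bp1, Itgb3bp, Lama4, Lama5 and Itga2b, and the remaining family members given by value, were picked after their values were seen. Gene symbols come from the platform annotation; 12783 probe sets have 1 symbol. The steps were tested on simulated data. Replicate numbers were checked for pairing over 10 pairs of groups: the correlation of deviations was -0.02 to 0.30. It was above 0.1 in 1, that of the control and E2F1 groups with LY294002 (0.30). The numbers were not used as pairs.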

Additional observations from a re-analysis of the deposited data

How the results depend on the processing

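The alternatives were quantile normalization, centring, offsets of 1 and 64, leaving out the dimmest 30% of probe sets, a replicate block, the compared groups alone, each array left out in turn and, prompted by earlier results of these data, leaving out both second LY294002 arrays and the 3' to 5' gap as a covariate. Of the changes tried, 0 reversed a called direction. The cause of each shift below was not tested. For the E2F1 average (9 genes called), leaving out 1 array gave 4 to 13. An offset of 1 gave 6, all lower; leaving out dim probe sets and the covariate gave 10 each (9 lower, 1 higher), and leaving out both second LY294002 arrays 13 (10 lower, 3 higher). Quantile normalization left the average at 9, with Itgae (adjusted p = 0.0413, limma) in place of Sdc4 (0.0654). In serum (0) the fit without dim probe sets called 1. For E2F1 under LY294002, quantile normalization added Pcdha13 (adjusted p = 0.0466, limma), and centring put Sdc4 (0.0474) in place of Cdh13 (0.0512). With LY294002 (2), 4 were called with an offset of 64 and without dim probe sets, 1 with an offset of 1 and with the covariate, and 0 in the compared groups alone and without both second LY294002 arrays. Leaving out 1 array gave 1 to 3.

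For E2F1 in deprivation (0), quantile normalization called 1, leaving out both second LY294002 arrays 3, and the covariate 4; leaving out 1 array gave 0 to 1. LY294002 in E2F1 cells (0) gave 0 to 1 as arrays were left out. Deprivation in control virus cells (0) gave 1 with quantile normalization, without dim probe sets and without both second LY294002 arrays, and 0 to 1 as single arrays were left out. In E2F1 cells (0) it gave 1 under those 3 and with an offset of 64, and 0 to 1 as arrays were left out. The deprivation average (2) gave 1 with an offset of 1, 6 in the compared groups alone and 0 with the covariate. Leaving out both second LY294002 arrays could only repeat the fit of the compared groups alone, as single arrays add no spread. Both calls were lost in some of the fits that left out 1 array. Without the deprived control array, no comparison that needs it could be fitted.

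The labels state no pairing, so the fit with a replicate block is given only here. It is not among the alternatives counted in the results above. This fit called 6 genes in the E2F1 average, without Itgb1bp1 (adjusted p = 0.0543, limma), Pcdhb9 (0.0579) and Sdc4 (0.0519). For E2F1 with LY294002 it called 1, without Cdh13 (0.0600).

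Centring each array on its median moved the median of all probe sets by 0.11 for LY294002 and for deprivation in E2F1 cells and by 0.14 for the difference between deprivation and serum. Dim genes are limited by background: 13 of the 43 lie under a signal of 67.2.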
